A study of Rattus norvegicus with 11 samples.

Results

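The CXC chemokines are small secreted proteins with paired cysteines set 1 residue apart, and 9 of their genes and 1 of their receptor genes were followed here in the striatum of rats after intracerebral hemorrhage (ICH). The 10 genes were taken by symbol from the 30560 genes of the count table: the ligand genes Cxcl1, Cxcl2, Cxcl3, Cxcl6, Cxcl9, Cxcl10, Cxcl12, Cxcl13 and Cxcl16 and the receptor gene Cxcr2. All 10 were found, and 9 passed the filter on low counts together with 15742 genes in all. Cxcl9 did not pass and is given by its counts. Bulk RNA was sequenced at day 3 from 11 adult male Sprague-Dawley rats, 1 library per rat. The 3 common-hemorrhage rats (IC) received 0.2 U of bacterial collagenase VII-S in 1 μL of saline into the right striatum, and the 3 severe-hemorrhage rats (IS) received 0.6 U in 3 μL. The 3 aspirated rats (IS-HA) received the IS injection and had 150 μL of the hematoma withdrawn through a catheter at 6 h, and the 2 Normal rats had neither collagenase nor aspiration. Collagenase breaks down the matrix of vessel walls so that the vessels bleed. IC and IS differ in enzyme dose and in volume together, no saline-injected group was among the samples, and no group had the catheter alone, so that hemorrhage, enzyme, needle and catheter cannot be told apart. Values are listed in the order of the labels' replicate numbers, 1 and 3 in Normal, 2, 3 and 4 in IC and in IS, and 1, 2 and 3 in IS-HA.

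CXC ligands that carry an ELR motif (Glu-Leu-Arg), among them Cxcl1, Cxcl2, Cxcl3 and Cxcl6, bind the receptor Cxcr2 on neutrophils and direct these cells out of vessels toward injured tissue. The ligands without that motif act on other leukocytes. Cxcl9 and Cxcl10 are interferon-induced and bind Cxcr3 on T cells and natural killer cells, Cxcl12 binds Cxcr4 and is made constitutively in brain, Cxcl13 draws B cells through Cxcr5, and Cxcl16 is a membrane-bound ligand of Cxcr6 that also serves as a scavenger receptor. The genes of the ELR ligands are rapidly transcribed after binding of NF-κB to their promoters, in response to interleukin 1 and tumor necrosis factor, and in bleeding injuries of the brain they are known for the arrival of neutrophils within the first days.

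Most of the members lie in clusters of the genome. In the RefSeq annotation of GRCr8, Cxcl2, Cxcl1, Cxcl3 and Cxcl6 stood on chromosome 14 in a cluster that also held Pf4 and Ppbp, Cxcl9 and Cxcl10 were neighbors on the same chromosome next to Cxcl11, and Cxcr2 was next to Cxcr1 on chromosome 9. Promoters of 9 of the 10 members matched in the RefSeq table of GRCr8, all but Cxcl3. The 250 bases before the start of transcription are shown for the Cxcr2 ligands and for Cxcl10, because matches to NF-κB sites lie in them, and for Cxcl12, the constitutive ligand. Each is printed 5′ to 3′ on the strand of its gene, and capitals mark matches, on either strand, to the NF-κB consensus and, at the far left of Cxcl10, to the core of the interferon-stimulated response element (ISRE), GAAANNGAA.
Cxcl1, chr14:17479322-17479571, minus strand: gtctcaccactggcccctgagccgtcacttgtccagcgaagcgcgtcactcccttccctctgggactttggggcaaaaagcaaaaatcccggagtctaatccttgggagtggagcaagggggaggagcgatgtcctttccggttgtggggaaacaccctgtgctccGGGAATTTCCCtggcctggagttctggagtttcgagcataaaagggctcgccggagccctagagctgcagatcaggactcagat
Cxcl2, chr14:17467256-17467505, minus strand: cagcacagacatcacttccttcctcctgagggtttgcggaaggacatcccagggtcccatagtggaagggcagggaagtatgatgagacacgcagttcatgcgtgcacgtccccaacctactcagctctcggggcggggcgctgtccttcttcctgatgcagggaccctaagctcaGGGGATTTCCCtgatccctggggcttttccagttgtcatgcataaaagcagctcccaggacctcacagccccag
Cxcl6, chr14:17596418-17596667, minus strand: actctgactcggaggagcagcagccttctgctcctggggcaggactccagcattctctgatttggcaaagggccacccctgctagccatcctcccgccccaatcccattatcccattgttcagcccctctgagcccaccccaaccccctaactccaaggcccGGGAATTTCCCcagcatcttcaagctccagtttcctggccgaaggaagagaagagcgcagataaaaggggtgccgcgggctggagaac
Cxcl10, chr14:15988816-15989065, plus strand: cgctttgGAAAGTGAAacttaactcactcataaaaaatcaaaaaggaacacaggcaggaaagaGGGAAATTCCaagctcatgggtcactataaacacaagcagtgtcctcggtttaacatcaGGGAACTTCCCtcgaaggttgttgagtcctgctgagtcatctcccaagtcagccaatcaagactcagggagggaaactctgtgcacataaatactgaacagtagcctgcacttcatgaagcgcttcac
Cxcl12, chr4:152060531-152060780, plus strand: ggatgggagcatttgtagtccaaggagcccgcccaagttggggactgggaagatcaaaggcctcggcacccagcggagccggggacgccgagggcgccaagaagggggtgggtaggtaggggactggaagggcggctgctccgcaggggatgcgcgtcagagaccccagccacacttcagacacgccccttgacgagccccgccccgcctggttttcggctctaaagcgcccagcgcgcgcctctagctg

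The NF-κB consensus was found in the 300 bases around the start (250 before and 50 after) of 4 of the 9 matched members, against 7.51% of 33469 promoters of the same length. Counted from the start, with overlapping matches joined, they lay at -84 to -74 in Cxcl1, at -74 to -64 in Cxcl2, at -88 to -78 in Cxcl6, and at -187 to -178 and -128 to -118 in Cxcl10. A narrower form, GGGANNTTC on either strand, which overlaps the consensus, was in 5 of the 9 (Cxcl1, Cxcl6, Cxcl9, Cxcl10 and Cxcr2) and in 4.05% of all promoters. The ISRE core was in 1 of the 9, Cxcl10, at -243 to -235, and in 9.71% of all promoters. These are matches of letters, and binding was not measured.

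Counts assigned to genes ranged from 6701301 (IS-HA replicate 2) to 18817645 per library, so that 3 counts, taken as the floor of detection, correspond to between 0.159 and 0.448 CPM (counts scaled by library total, and elsewhere by the effective total after TMM). IS-HA replicate 2 stood apart: its mean correlation with the other rats of its group, across genes, was 0.912, against 0.945 and 0.949 for the other IS-HA rats and 0.957 to 0.983 in the other groups. Results that rest on it are therefore given with and without it. The tissue label held against its markers: all 8 striatal neuron markers were detected in every rat, with summed levels of 6383 to 6924 CPM in Normal, 2435 to 5221 CPM in IC, 1407 to 3506 CPM in IS and 1705 to 3058 CPM in IS-HA. Among the 8, Rbfox3 and Snap25 mark neurons of any region, and their levels are part of these sums. In bulk RNA, fewer cells of a type and less RNA per cell cannot be told apart.

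Neutrophil RNA was read from 12 marker genes. Their summed level was 5.66 and 4.82 CPM in Normal, 47.2, 104 and 85.6 CPM in IC, 205, 165 and 225 CPM in IS, and 70.8, 267 and 81.6 CPM in IS-HA. All IS rats were above all IC rats, and IS-HA replicate 2 was the highest of the 11. Most of the sum came from S100a8 and S100a9, the subunits of calprotectin, and from Csf3r, the receptor of granulocyte colony-stimulating factor, which macrophages can also express. S100a9 stood at 0.436 and 0.291 CPM in Normal, 7.86, 26.3 and 22.6 CPM in IC, 85.2, 74.8 and 77.6 CPM in IS, and 18.0, 101 and 24.5 CPM in IS-HA. Among the 12, Ltf (lactoferrin) had 0 counts in all 11 rats. Mpo (myeloperoxidase) was at 0 in 9 of them, and Fpr1 (a formyl peptide receptor) had 1 count in all. Mmp8 and Elane, also among the 12, had counts enough to be tested. By edgeR's test without IS-HA replicate 2, Mmp8 was higher than Normal in IC, IS and IS-HA (adjusted p = 0.000832, 0.000275 and 0.00217). Elane was too (adjusted p = 0.0151, 0.000592 and 0.00919), as were all 5 tested markers. With all 11 rats, 10.9%, 18.8% and 15.1% of all genes were higher in IC, IS and IS-HA (adjusted p under 0.05, log2 fold change at least 1). For IS against IC the same edgeR fit gave 1.92 for S100a8 and 2.07 for S100a9 (adjusted p = 0.0251 and 0.0212). Elane was at 1.77, Csf3r at 0.75 and Mmp8 at -0.04 (adjusted p = 0.0527, 0.0753 and 0.958), so the higher sum in IS did not extend to Mmp8. The summed 8 markers of microglia and macrophages were 255 to 331 CPM in Normal, 1143 to 1373 CPM in IC, 1430 to 2078 CPM in IS and 1278 to 1722 CPM in IS-HA. The part of these marker changes in the results below was not tested.

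Against Normal striatum, hemorrhage of either grade came with higher RNA of Cxcl1, Cxcl2, Cxcl16 and Cxcr2, and severe hemorrhage also with higher Cxcl3 and Cxcl6 and lower Cxcl12. A gene was called when its adjusted p was under 0.05 and its log2 fold change at least 1 in size, by edgeR's quasi-likelihood test in 1 fit over the 4 groups. Cxcl3 and Cxcl6 are not thereby particular to severe hemorrhage, as all IC rats were above both Normal rats for both. Cxcl3 was just short of a call in IC (adjusted p = 0.0571, against 0.0360 for Cxcl2), and Cxcl6 was further from it (adjusted p = 0.193). In IC, 4 of the 10 members were called higher (Cxcl1, Cxcl2, Cxcl16 and Cxcr2), against 10.9% of all genes tested, and 0 lower, against 2.66%. In IS, 7 were called higher (Cxcl1, Cxcl2, Cxcl3, Cxcl6, Cxcl13, Cxcl16 and Cxcr2), against 18.8%, and 1 lower (Cxcl12), against 17.0%. In IS-HA, 7 were called higher (Cxcl1, Cxcl2, Cxcl3, Cxcl6, Cxcl10, Cxcl16 and Cxcr2), against 15.1%, and 1 lower (Cxcl12), against 7.71%. The 3 comparisons share the same 2 Normal rats. The median log2 fold change of the 9 tested members, with the genes that had 0 counts in Normal set to their lower bound, was 3.38 in IC, 4.34 in IS and 3.63 in IS-HA, where the medians of all genes tested were 0.0033, 0.018 and 0.056. In each of the 11 fits that left out 1 rat, Cxcl1, Cxcl16 and Cxcr2 were called higher in all 3 groups, and Cxcl2, Cxcl3 and Cxcl6 in IS. Calls that ended when 1 rat was left out were Cxcl2 in IC, without Normal replicate 1 or 3, IC replicate 3 or 4 or IS-HA replicate 3 (adjusted p = 0.0510 to 0.192), and those of IS-HA and of Cxcl12 and Cxcl13 given with each gene. In IS-HA the count of members called higher was 3 without Normal replicate 1 or 3 and 4 without IS-HA replicate 2.

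Between the hemorrhage groups, 0 members were called with all 11 rats, and 0 genes at all (0%) were higher or lower in IS than in IC. The largest log2 fold changes were those of Cxcl2 and Cxcl3, positive in IS against IC and negative in IS-HA against IS. In IS against IC, 6 members had an unadjusted p under 0.05 in the higher direction (Cxcl1, Cxcl2, Cxcl3, Cxcl6, Cxcl16 and Cxcr2), against 10.5% of all genes, and 1 in the lower (Cxcl12), against 11.7%. In CPM, all IS rats were above all IC rats for the same 6 members, against 19.2% of all genes, and for 1 (Cxcl10) all were below, against 18.7%. In IS-HA against IS, 0 members had an unadjusted p under 0.05 in the higher direction, against 5.58%, and 4 in the lower (Cxcl2, Cxcl3, Cxcl16 and Cxcr2), against 3.36%. All IS-HA rats were below all IS rats for 3 members (Cxcl2, Cxcl16 and Cxcr2), against 5.42% of genes, and above for 0, against 4.96%. Among all genes 1 was called higher in IS-HA than in IS (0.00635%) and 0 lower (0%). In IS-HA against IC, 0 members were called in either direction (0% of genes in both) and 0 had an unadjusted p under 0.05. IS against IC and IS-HA against IS share the 3 IS rats, so that a high value in these rats enters both.

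The fit without IS-HA replicate 2 called 3 members higher in IS than in IC and the same 3 lower in IS-HA than in IS, namely Cxcl2, Cxcl3 and Cxcr2. In that fit 2.19% of all genes were called higher and 3.87% lower in IS against IC, and 0.541% lower and 2.48% higher in IS-HA against IS. DESeq2's Wald test with all 11 rats called Cxcl2, Cxcl3 and Cxcr2 higher in IS than in IC, against 1.73% of genes, and Cxcl2 and Cxcr2 lower in IS-HA than in IS, against 0.126%. The plot of fold changes shows both edgeR fits side by side.

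**Figure D1:**
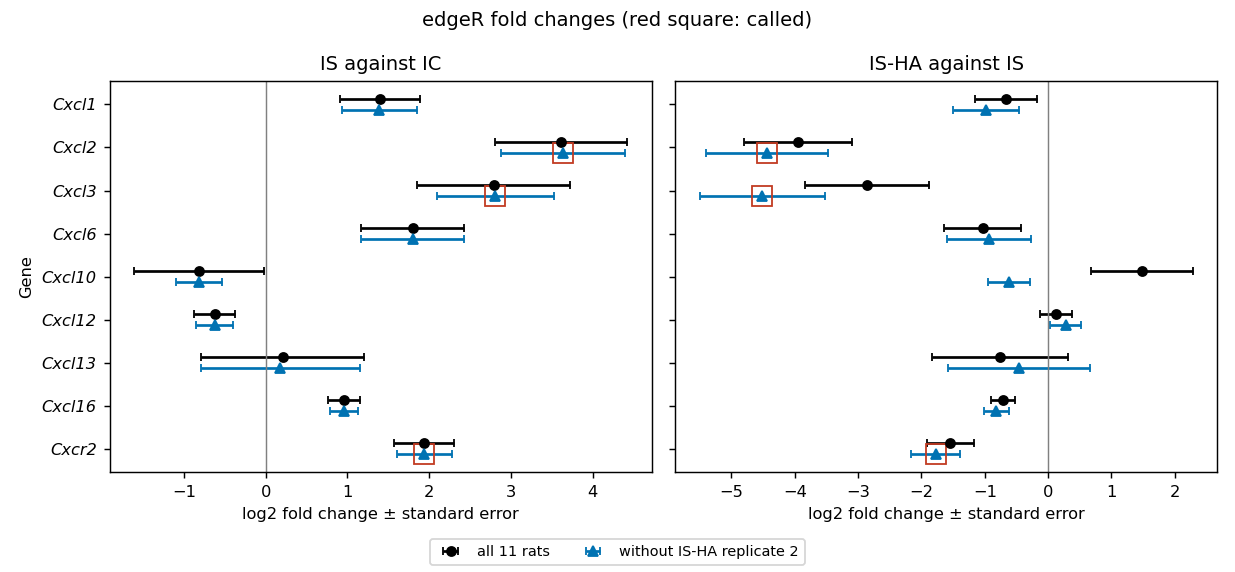
Log2 fold change (x axis, ± standard error) of the 9 tested members (y axis) in IS against IC (left) and IS-HA against IS (right), from all 11 rats (black circles) and without IS-HA replicate 2 (blue triangles), with red squares on the members called. Cxcl2, Cxcl3 and Cxcr2 lie to the right of 0 on the left and to the left of 0 on the right in both fits, and Cxcl10 changes side on the right.

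Cxcl2 (ENSRNOG00000002792), also known as MIP-2, encodes a neutrophil attractant made by macrophages and had the largest log2 fold changes of the members between hemorrhage groups. It stood at 0 TPM (transcript abundance corrected for gene length) in both Normal rats, at 0.430, 2.26 and 7.37 TPM in IC, at 18.2, 56.9 and 39.3 TPM in IS, and at 1.86, 3.82 and 2.1 TPM in IS-HA. All 3 IS rats were above the other 8 rats, and IC and IS-HA overlapped. The 562 counts of the IS rats were at least 209-fold higher than the floor of 3 counts over the Normal rats (adjusted p = 0.00101), and the IC and IS-HA rats at least 15.3-fold and 12.5-fold (adjusted p = 0.0360 and 0.0336). The call in IS-HA ended without Normal replicate 1 or 3 or IS-HA replicate 2 (adjusted p = 0.112, 0.153 and 0.0782). IS against IC gave a log2 fold change of 3.61 (standard error 0.81, unadjusted p = 0.00123, adjusted p = 0.146). The adjusted p ranged from 0.00177 with DESeq2 to 0.516 over 20 alternatives, all with a log2 fold change between 3.05 and 4.91. IS-HA against IS gave -3.95 (standard error 0.85, unadjusted p = 0.000914, adjusted p = 0.415), with 20 alternatives between -4.44 and -3.35 and adjusted p from 0.00145 to 0.999. Without IS-HA replicate 2 the values were 3.64 (adjusted p = 0.0256) and -4.44 (adjusted p = 0.0423). IS-HA against IC gave -0.35 (standard error 0.88, adjusted p = 0.947), and its sign depended on the fit.

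Cxcl3 (ENSRNOG00000028043), a closely related ligand of Cxcr2, had the same order of group means as Cxcl2 between IC and IS. It stood at 0 TPM in both Normal rats, at 0.589, 1.86 and 4.30 TPM in IC, at 5.07, 23.3 and 15.4 TPM in IS, and at 0.587, 4.87 and 0.863 TPM in IS-HA. The IS rats were above all IC and IS-HA rats in TPM, although IS replicate 2 at 5.07 and IS-HA replicate 2 at 4.87 were close together and changed places in CPM. The counts were at least 15.5-fold higher than the floor over Normal in IC (adjusted p = 0.0571), at least 116-fold in IS (adjusted p = 0.00349) and at least 12.9-fold in IS-HA (adjusted p = 0.0440). The call in IS-HA ended without Normal replicate 1 or 3, IC replicate 3, IS replicate 3 or 4, or IS-HA replicate 2 (adjusted p = 0.0504 to 0.181), and Cxcl3 was called in IC without IC replicate 2 or IS-HA replicate 2 (adjusted p = 0.0451 and 0.0195), with DESeq2, limma at a pseudocount of 0.1, no filter, library size alone and only the 2 groups compared (adjusted p = 0.000635 to 0.0455). On the log2 scale IS against IC gave 2.79 (standard error 0.94, adjusted p = 0.165) and IS-HA against IS -2.86 (standard error 0.98, adjusted p = 0.540). Leaving out IS-HA replicate 2 gave 2.81 (adjusted p = 0.0374) and -4.51 (adjusted p = 0.0439). Cxcl1, Cxcl2 and Cxcl3 are related genes. How the counting treated any reads that match more than 1 of them was not examined, and their separate values carry this uncertainty.

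Cxcl1 (ENSRNOG00000002802), the rat neutrophil attractant first known as CINC-1, was more even across the hemorrhage groups. It was at 0 and 0.132 TPM in Normal, 3.36, 7.59 and 3.35 TPM in IC, 9.30, 12.3 and 14.2 TPM in IS, and 3.51, 9.32 and 10.3 TPM in IS-HA. The IS rats were above the IC rats, and the IS-HA rats overlapped with both. Normal held 1 count in all, and the ratio to it was 74.3 in IC (95% Clopper-Pearson interval for counting error 13 to 2963), 180 in IS (31.8 to 7138) and 103 in IS-HA (18.0 to 4096), with adjusted p of 0.00261, 0.000274 and 0.000885. The value of IS against IC was 1.40 (standard error 0.49, adjusted p = 0.170), and IS-HA against IS gave -0.67 (standard error 0.49, adjusted p = 0.664), in which 0 of 20 alternatives reached an adjusted p under 0.05. Cxcl6 (ENSRNOG00000002843), a further ELR ligand, was the lowest of the 4, at 0.0761 and 0.156 TPM in Normal, 0.269, 0.495 and 0.578 TPM in IC, 0.831, 1.70 and 1.96 TPM in IS, and 1.34, 0.513 and 0.263 TPM in IS-HA. These rest on 3, 15, 34 and 20 counts per group. The ratio of IS to Normal was 12.6 (3.98 to 64.3, adjusted p = 0.00608) and that of IS-HA to Normal 6.78 (2.01 to 35.6, adjusted p = 0.0499). The latter call ended in 9 of the 11 fits that left out 1 rat (adjusted p = 0.0537 to 0.215), all but those without IS replicate 2 or IS-HA replicate 3. For Cxcl6, IS against IC gave 1.80 (standard error 0.63, adjusted p = 0.168), and IS-HA against IS gave -1.03 (standard error 0.61, adjusted p = 0.597).

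The makeup of the Cxcr2 ligand RNA differed between rats as well as its amount. The 4 ligands together came to 0.0761 and 0.288 TPM in Normal, 4.65, 12.2 and 15.6 TPM in IC, 33.4, 94.2 and 70.8 TPM in IS, and 7.29, 18.5 and 13.5 TPM in IS-HA. Every IS rat was above every IC and IS-HA rat. Cxcl2 made up 54.5%, 60.4% and 55.5% of this sum in IS, 9.23%, 18.5% and 47.3% in IC, and 25.5%, 20.6% and 15.5% in IS-HA. The Cxcl2 share was higher in each IS rat than in each of the other 6 rats with hemorrhage. Cxcl1 made up 27.9%, 13.1% and 20.0% in IS and 48.1%, 50.3% and 76.2% in IS-HA, which do not overlap, and 72.3%, 62.2% and 21.5% in IC, where replicate 4 was apart from the other IC rats. The ratio of Cxcl2 to Cxcl1 was 1.95, 4.61 and 2.77 in IS and 0.529, 0.410 and 0.204 in IS-HA. It was 0.128, 0.297 and 2.20 in IC, where replicate 4 lay within the IS range. These sums and shares were chosen after the levels were known and were not tested.

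**Figure D2:**
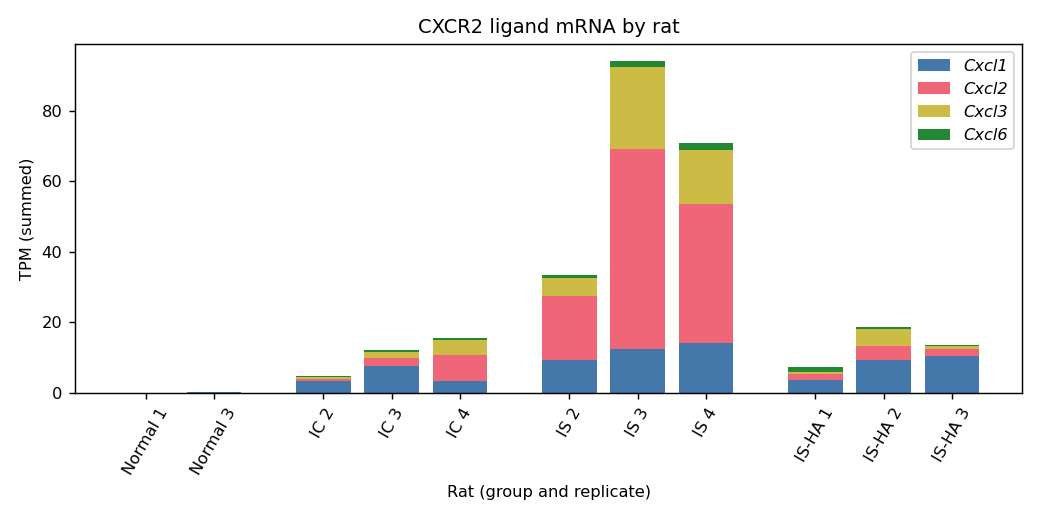
TPM of Cxcl1, Cxcl2, Cxcl3 and Cxcl6 (stacked, y axis) in each of the 11 rats (x axis), 1 bar per rat. The IS bars reach 33.4 to 94.2 TPM and are mostly Cxcl2, and the IS-HA bars reach 7.29 to 18.5 TPM and are mostly Cxcl1 in replicates 2 and 3.

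Cxcr2 (ENSRNOG00000063618), the receptor of these ligands, was nearly absent from Normal striatum at 0.0264 and 0.0540 TPM (3 counts). It stood at 0.686, 1.57 and 1.52 TPM in IC, 6.02, 3.58 and 4.36 TPM in IS, and 1.65, 1.84 and 1.32 TPM in IS-HA. All IS rats were above all rats of the other groups, and the IS-HA rats overlapped with IC. The ratio to Normal was 30.1 in IC (10.1 to 148), 117 in IS (39.6 to 569) and 38.3 in IS-HA (12.8 to 189), with adjusted p of 0.000666, 4.55e-05 and 0.000311. The log2 fold change of IS over IC was 1.94 (standard error 0.37, adjusted p = 0.143), with an adjusted p under 0.05 in 2 of 20 alternatives (from 0.000508 to 0.516). IS-HA against IS gave -1.54 (standard error 0.37, adjusted p = 0.480), again under 0.05 in 2 of 20 (from 0.0251 to 1). Without IS-HA replicate 2 the values were 1.94 (adjusted p = 0.0214) and -1.78 (adjusted p = 0.0410). Against the neutrophil markers, Cxcr2 came to 6.24, 4.94 and 4.71 CPM per 100 CPM of summed markers in IS, 3.05, 3.11 and 4.20 in IC, and 4.78, 1.83 and 3.31 in IS-HA. IS-HA replicate 2 thus held the highest marker sum of all rats and the lowest Cxcr2 relative to it among the rats with hemorrhage. Cxcr1, the neighboring receptor of the family, had log2 fold changes of 0.12 in IS against IC and 0.32 in IS-HA against IS (adjusted p = 0.941 and 0.927).

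**Figure D3:**
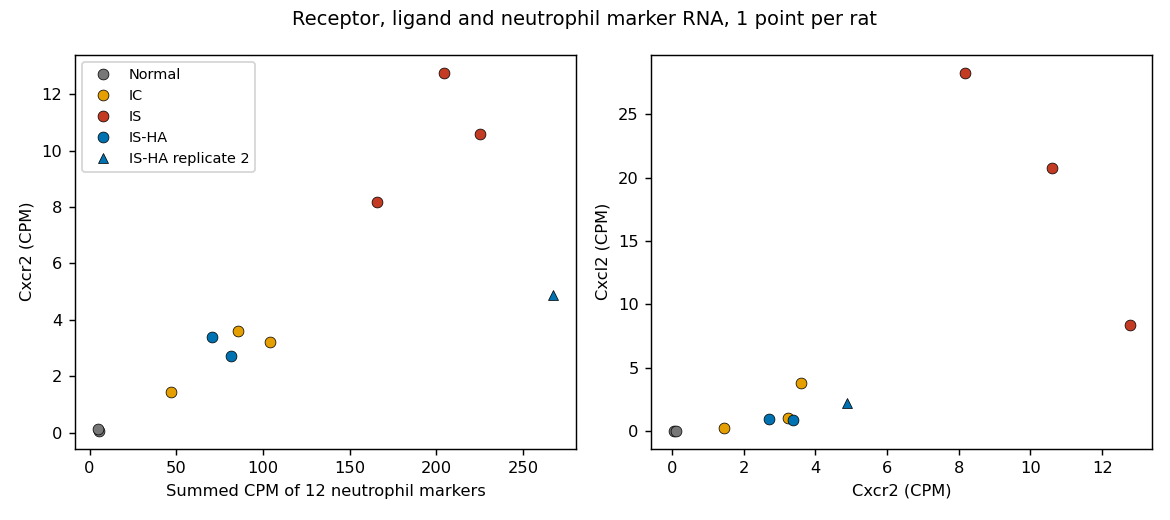
Left, Cxcr2 (CPM, y axis) against the summed CPM of 12 neutrophil markers (x axis). Right, Cxcl2 (CPM, y axis) against Cxcr2 (CPM, x axis), each with 1 point per rat and the triangle for IS-HA replicate 2. The IS rats lie at the top of both panels, and IS-HA replicate 2 has the highest marker sum, 267 CPM, with Cxcr2 below the IS rats.

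The ligands of Cxcr3 had another order of groups. Cxcl10 (ENSRNOG00000022256), the interferon-induced protein also called IP-10, stood at 0.902 and 1.84 TPM in Normal, 12.2, 12.6 and 8.56 TPM in IC, 7.56, 4.70 and 5.80 TPM in IS, and 3.85, 38.0 and 4.87 TPM in IS-HA. All its IS rats were below all its IC rats, and IS-HA replicate 2 was far above the other 10 rats. IS against IC gave -0.81 (standard error 0.79, adjusted p = 0.526), and without IS-HA replicate 2 the standard error was 0.28 for the same -0.81 (adjusted p = 0.0699). IS-HA against IS gave 1.48 (standard error 0.80, adjusted p = 0.575) with all rats and -0.62 (standard error 0.33, adjusted p = 0.228) without replicate 2. Against Normal, Cxcl10 was called in IS-HA alone (3.62, adjusted p = 0.0247), while it was at 2.95 in IC (adjusted p = 0.0694) and 2.14 in IS (adjusted p = 0.106). The call in IS-HA ended without Normal replicate 1 or 3 (adjusted p = 0.132 and 0.119), and Cxcl10 was called in IC without IS-HA replicate 1 (adjusted p = 0.0363). With only the 2 groups compared, Cxcl10 was called in IC and IS (adjusted p = 0.00102 and 0.00679) and not in IS-HA (adjusted p = 0.116). Limma at a pseudocount of 1 or 0.1 called it in IC (adjusted p = 0.0493 and 0.0279). When IS-HA replicate 2 was left out, Cxcl10 was called in IC (2.95, adjusted p = 0.000316), IS (2.14, adjusted p = 0.000688) and IS-HA (1.52, adjusted p = 0.0167), and IS-HA against IC gave -1.43 (standard error 0.33, unadjusted p = 0.00122, adjusted p = 0.918).

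Cxcl9 (ENSRNOG00000022242), another interferon-induced Cxcr3 ligand, had 4 counts in Normal, 25 in IC, 7 in IS and 4 in IS-HA. In TPM it was 0.222 and 0.227 in Normal, 0.656, 1.03 and 1.69 in IC, 0, 0.992 and 0.238 in IS, and 0.262, 0.250 and 0.192 in IS-HA. All 3 IC rats were above Normal and above the IS-HA rats, and IS overlapped with all groups. The ratio of pooled counts was 4.55 for IC to Normal (1.57 to 18.0), 0.429 for IS to IC (0.157 to 1.02) and 0.223 for IS-HA to IC (0.0565 to 0.647), intervals that cover counting error only. Unlike Cxcl10, Cxcl9 was not high in IS-HA replicate 2. The sum of Cxcl9 and Cxcl10 was 10.2 to 13.6 TPM in IC and 5.69 to 7.56 TPM in IS, so that the Cxcr2 ligands came to 0.361, 0.896 and 1.52 times this sum in IC and to 4.41, 16.6 and 11.7 times in IS. In IS-HA the sum was 4.11, 38.3 and 5.06 TPM and the Cxcr2 ligands 1.78, 0.484 and 2.67 times it, a range that overlapped with IC and whose lowest value was that of replicate 2. The summed markers of T and natural killer cells, 5 of 6 found, were 0.814 to 1.18 CPM in Normal, 25.0 to 75.8 CPM in IC, 99.7 to 308 CPM in IS and 45.8 to 150 CPM in IS-HA, and nearly all of the sum after hemorrhage was Cd8a. Cd8a was called higher in IC, IS and IS-HA against Normal (8.98, 10.72 and 9.67 on the log2 scale), while Cd3e, a chain of the T-cell receptor complex, was at 0.13, 0.69 and 0.47 (adjusted p = 0.918, 0.453 and 0.646) with 3 to 20 counts in every rat. Cd3g was called in IS alone (3.50, adjusted p = 0.0194), Cd3d was not called in any of the 3, and Nkg7 was too low to test. Leaving out IS-HA replicate 2 put Cd3e and Cd3g in IS-HA at -0.75 and -0.22 (adjusted p = 0.309 and 0.904) and Cd3d under the filter. The part of these cells in the results was not tested.

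Cxcl12 (ENSRNOG00000013589), also called SDF-1, was the member with the highest level in Normal striatum and the 1 that fell. It stood at 39.6 and 39.8 TPM in Normal, 33.8, 24.3 and 27.6 TPM in IC, 20.5, 22.5 and 10.6 TPM in IS, and 23.9, 12.9 and 23.8 TPM in IS-HA. All 9 rats with hemorrhage were below both Normal rats. It fell by 1.15 on the log2 scale in IS against Normal (standard error 0.27, adjusted p = 0.00608) and by 1.02 in IS-HA (standard error 0.27, adjusted p = 0.0178), and was at -0.53 in IC (standard error 0.27, adjusted p = 0.195). The fold lay near the cutoff of 1 in size: without IS replicate 4 it was -0.92 in IS (adjusted p = 0.0133), and in IS-HA it was -0.87 without IS-HA replicate 2 (adjusted p = 0.0374), -0.96 without Normal replicate 1 (adjusted p = 0.0870) and -1.09 without Normal replicate 3 (adjusted p = 0.0801). IS against IC gave -0.62 (standard error 0.25, adjusted p = 0.193), with groups that did not overlap in TPM and overlapped in CPM, and IS-HA against IS 0.13 (standard error 0.25, adjusted p = 0.895). The summed markers of striatal neurons and of oligodendrocytes were also lower in all rats with hemorrhage than in Normal. Those of astrocytes, of endothelium and of pericytes and fibroblasts were higher. Endothelium was at 222 to 326 CPM in Normal and at least 332 CPM after hemorrhage, and pericytes and fibroblasts at 152 to 161 CPM and at least 178 CPM. The part of these cells in the Cxcl12 levels was not tested. In contrast to Cxcl12, its receptor Cxcr4 rose in all 3 groups against Normal, by 3.41 in IC, 4.95 in IS and 3.84 in IS-HA (adjusted p = 0.00566, 0.000424 and 0.00237). Ackr3, the scavenger receptor of Cxcl12, was at -0.30, -0.32 and -0.50 (adjusted p = 0.419, 0.313 and 0.144).

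Cxcl16 (ENSRNOG00000026647) was the ligand with the highest mean level in each hemorrhage group and the most even between rats. It stood at 3.21 and 3.28 TPM in Normal, 33.2, 41.5 and 31.2 TPM in IC, 60.7, 55.3 and 78.0 TPM in IS, and 43.0, 39.3 and 39.0 TPM in IS-HA. The 4 groups overlapped only between IC and IS-HA. It rose by 3.38 in IC, 4.34 in IS and 3.63 in IS-HA against Normal on the log2 scale (standard errors 0.26, 0.27 and 0.26, adjusted p = 0.000115, 3.13e-05 and 6.44e-05). For IS against IC it was 0.96 (standard error 0.19, adjusted p = 0.143) and IS-HA against IS -0.71 (standard error 0.19, adjusted p = 0.499). In the fit without IS-HA replicate 2 the adjusted p were 0.0214 and 0.0467, with log2 fold changes of 0.96 and -0.82 that are under the cutoff of 1 in size. Cxcr6, its receptor, had 0 counts in both Normal rats and 2 to 11 counts in the other rats, too few to pass the filter. The summed markers of microglia and macrophages, cells in which Cxcl16 is known to be made, were higher in every IS rat than in every IC rat, as Cxcl16 was. The single markers differed. In IS against IC without IS-HA replicate 2, Tyrobp alone of the 8 was called higher (1.23), against 2.19% of all genes. None was called lower, against 3.87%. Aif1, Fcgr1a and Cd68 were at 0.77, 0.75 and 0.71, Csf1r and Cx3cr1 at 0.10 and 0.11, and P2ry12 and Tmem119 at -0.67 and -0.74. In IS-HA the marker sum overlapped with IS through replicate 2 alone, at 1722 CPM. Replicates 1 and 3, at 1278 and 1341 CPM, were below the lowest IS rat at 1430 CPM, as for Cxcl16. In replicate 2 the marker sum and Cxcl16 parted, as its Cxcl16, at 39.3 TPM, was below every IS rat (lowest 55.3 TPM). The part of these cells in the Cxcl16 levels was not tested.

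Cxcl13 (ENSRNOG00000024899), the B-cell attractant, was at 0 TPM in both Normal rats, 1.41, 2.00 and 1.09 TPM in IC, 0.934, 0 and 4.36 TPM in IS, and 0.704, 0.269 and 2.07 TPM in IS-HA. Its IS rats spanned the whole range of the 11, from none to the highest. The lower bounds against Normal were 8.26-fold in IC, 8.18-fold in IS and 5.42-fold in IS-HA, and it was called in IS (adjusted p = 0.0313). That call ended without Normal replicate 1 or 3 or IS replicate 4 (adjusted p = 0.102, 0.126 and 0.0995) and with limma at a pseudocount of 1 or 0.1 (adjusted p = 0.135 and 0.0828), and Cxcl13 was called in IC and IS-HA without IS replicate 3 or 4 (adjusted p = 0.0273 to 0.0369) and with DESeq2 (adjusted p = 0.0123 and 0.0195), and in IC with only the 2 groups compared (adjusted p = 0.0051). IS against IC gave 0.21 (standard error 0.99) and IS-HA against IS -0.76 (standard error 1.07), and neither sign held in all alternatives. B-cell markers summed to at most 2.37 CPM in any rat.

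**Figure D4:**
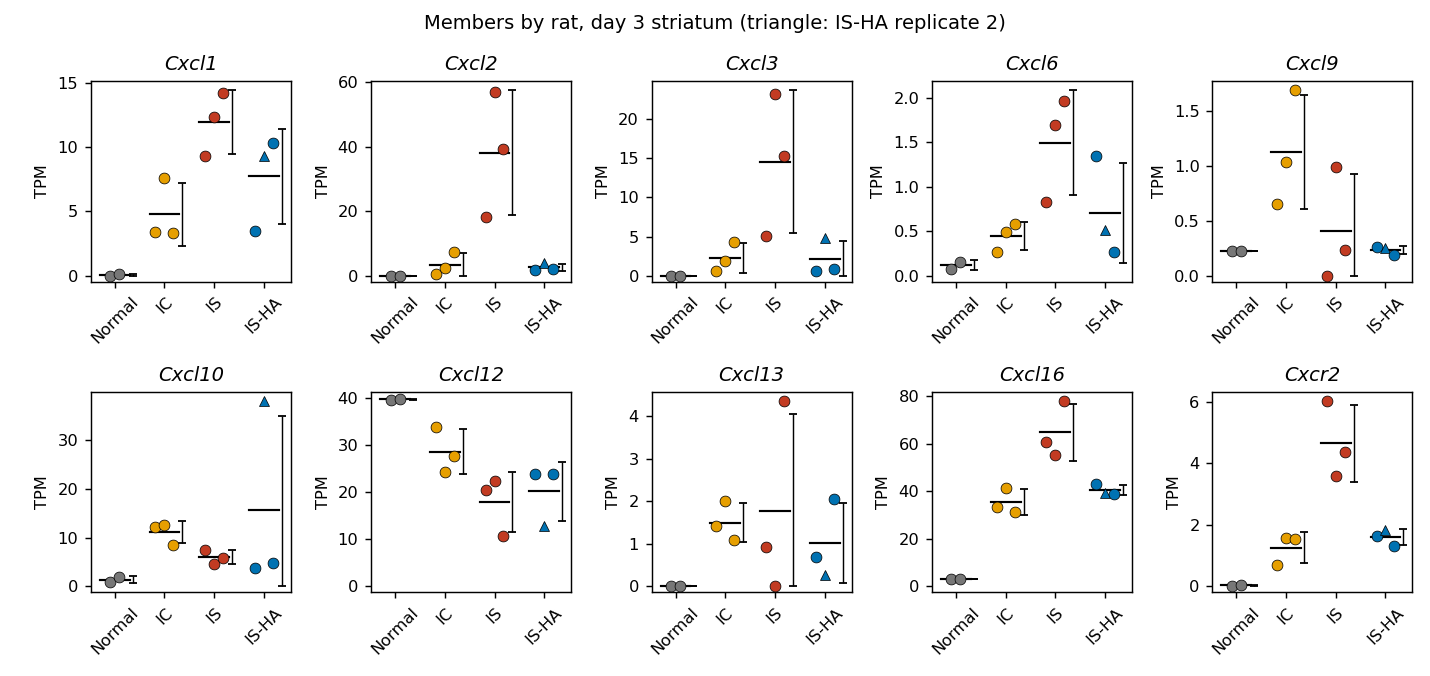
TPM (y axis, linear and with its own scale in each panel) of the 10 members in each rat by group (x axis), with the group mean as a bar and the SD beside it, cut at 0 where it would pass below. Cxcl1, Cxcl2, Cxcl3, Cxcl6, Cxcl16 and Cxcr2 are highest on average in IS, Cxcl12 in Normal, Cxcl9 in IC, and the mean of Cxcl10 in IS-HA rests on replicate 2 at 38.0 TPM.

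In order of mean TPM, which corrects for gene length, Cxcl12 led in Normal (39.7 ± 0.127, SD, n = 2), far above Cxcl16 (3.25 ± 0.0508, SD, n = 2) and Cxcl10 (1.37 ± 0.666, SD, n = 2), with ranges that did not overlap, and the other members had means of at most 0.225. In IC the order was Cxcl16 (35.3 ± 5.43, SD, n = 3), Cxcl12 (28.6 ± 4.80, SD, n = 3), Cxcl10 (11.1 ± 2.23, SD, n = 3) and Cxcl1 (4.77 ± 2.44, SD, n = 3), where Cxcl16 and Cxcl12 overlapped and the others did not. In IS it was Cxcl16 (64.7 ± 11.9, SD, n = 3), Cxcl2 (38.1 ± 19.4, SD, n = 3), Cxcl12 (17.8 ± 6.34, SD, n = 3), Cxcl3 (14.6 ± 9.13, SD, n = 3) and Cxcl1 (11.9 ± 2.46, SD, n = 3), whose neighbors overlapped in range. In IS-HA it was Cxcl16 (40.4 ± 2.22, SD, n = 3), Cxcl12 (20.2 ± 6.30, SD, n = 3), Cxcl10 (15.6 ± 19.4, SD, n = 3) and Cxcl1 (7.71 ± 3.67, SD, n = 3), and then Cxcl2 (2.59 ± 1.07, SD, n = 3), and of these neighbors Cxcl16 and Cxcl12 did not overlap. Cxcl2 stood next to the top in IS and behind Cxcl1 in IC and in IS-HA. Cxcl12 and Cxcl16 together made up 97.3% and 94.8% of the RNA of the 9 ligands in Normal, 68.6% to 78.0% in IC and 43.8% to 66.0% in IS, and 84.7%, 47.8% and 75.2% in IS-HA, which overlapped with both.

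Across the 9 rats with hemorrhage, the members fell into those that went together and those that did not. In log2 CPM, Pearson's r was 0.944 between Cxcl2 and Cxcl3, 0.903 between Cxcl2 and Cxcr2, 0.895 between Cxcl16 and Cxcr2, 0.782 between Cxcl1 and Cxcl16, and -0.833 between Cxcl12 and Cxcl16. Cxcl10 had an r between -0.320 and 0.0998 with every other tested member, and Cxcl13 one between -0.274 and 0.0978. Without IS-HA replicate 2 these ranges were -0.456 to 0.338 and -0.471 to 0.321, and the r of Cxcl10 with Cxcl12 turned from -0.155 to 0.338 and with Cxcl1 from 0.0968 to -0.258. These describe rats of 3 groups pooled, so the group differences enter them, and rats also share depth and cell makeup. Genes most like each member by this measure, up to 2 for each, were Nos2 (inducible nitric oxide synthase, r = 0.958) and Diablo (0.964) for Cxcl2, Tnf (tumor necrosis factor, 0.976) and Fam219b (0.9945) for Cxcl1, Cyp4f18 (0.973) and Tnip2 (0.966) for Cxcl3, Ltbp2 (0.940) and Hnrnpc (0.920) for Cxcl6, and Oscar (0.971) and Slc39a1 (0.969) for Cxcr2. For Cxcl16 they were Ogfrl1 (0.986) and Bid (0.981), for Cxcl12 Epb41l1 (0.987), for Cxcl13 Zfp729 (0.914) and Actl6a (0.907), and for Cxcl10 Zw10 (0.959) and Fam229b (0.936). Without IS-HA replicate 2 the last pair dropped to 0.851 and 0.756, while the genes named for Cxcl1, Cxcl2, Cxcl3, Cxcl16 and Cxcr2 stayed between 0.958 and 0.995.

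Among the other CXC ligands and receptors, 14 of 15 listed genes were found and 11 were tested. In IS against Normal 5 rose and 0 fell, with a median log2 fold change of 3.04: Pf4 (platelet factor 4, 7.52), Cxcr4 (4.95), Cxcr3 (4.35), Cxcl17 (4.25) and Cxcl11 (3.74). These shares stand against 18.8% of all genes higher and 17.0% lower. The same 5 genes were called higher in IC and in IS-HA, except that Cxcl11 was not called in IS-HA without replicate 2 (1.68, adjusted p = 0.1003). Pf4 stood at 0.685 and 0.755 CPM in Normal, 30.1, 85.3 and 48.0 CPM in IC, 102, 48.3 and 253 CPM in IS, and 22.6, 101 and 50.8 CPM in IS-HA, and the hemorrhage groups overlapped. The 4 platelet markers summed to 8.96 to 11.8 CPM in Normal and to 6.75 to 14.0 CPM in the rats with hemorrhage. Ppbp, the other ligand of the cluster on chromosome 14 that is known from platelets, had at most 1 count per rat. Of the atypical receptors, which bind chemokines without signaling to G proteins, Ackr4 was called lower in IC (-1.06, adjusted p = 0.0441) and in IS-HA (-1.34, adjusted p = 0.0125) and was at -0.94 in IS (adjusted p = 0.0342), Ackr1 was at 0.32, 0.53 and 0.58 in IC, IS-HA and IS, and Ackr2 at -1.05, -0.67 and -0.21. Cxcl14 was at 0.28 in IS against Normal (adjusted p = 0.611) and Cxcr1 at 3.04 (adjusted p = 0.0636). Cxcr5 was too low to test, at 0 to 12 counts per rat, and Cxcl5 was not analysed here. In IS against IC and in IS-HA against IS, 0 of the 11 were called. Without IS-HA replicate 2, 1 was called higher in IS than in IC, Cxcr4 (1.53, adjusted p = 0.0374), and 0 in IS-HA against IS.

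The cytokines and receptors that induce CXC ligands were mostly called higher after hemorrhage. Of 17 listed genes 13 were tested, and in IS against Normal 11 rose, against 18.8% of all genes, and 0 fell, against 17.0%, with a median of 2.94. With IS-HA replicate 2 left out, 12 rose and 1 fell, Il1rap (an interleukin 1 receptor subunit, -1.06, adjusted p = 0.0107), which was at -1.07 with all rats (adjusted p = 0.0559). The largest were Il6 (interleukin 6), whose 42 counts were at least 15.6-fold above the floor over Normal, Osm (oncostatin M, 5.91), Il1b (interleukin 1 beta, 5.56) and Lif (leukemia inhibitory factor, 3.87). Il1b stood at 0.311 and 0.232 CPM in Normal, 1.9, 4.03 and 2.74 CPM in IC, 6.47, 14.0 and 19.5 CPM in IS, and 2.75, 10.4 and 3.17 CPM in IS-HA. Its IS rats were above its IC rats (2.18, standard error 0.55, adjusted p = 0.147), and IS-HA replicate 2 was within the IS range (IS-HA against IS -1.34, adjusted p = 0.550). Leaving that rat out, Il1b was the 1 inducer called in each, at 2.18 (adjusted p = 0.0218) and -2.16 (adjusted p = 0.0410). Of 16 tested transcription factors and regulators of ligand mRNA decay, 10 rose (18.8% of all genes) and 0 fell (17.0% of all genes) in IS against Normal (median 2.26), led by Bcl3 (an NF-κB cofactor, 4.93), Cebpb (4.13), Cebpd (4.12) and Relb (an NF-κB subunit, 2.90). Cebpb, a leucine zipper factor of acute inflammation, stood at 42.7, 45.4 and 75.6 CPM in IS, 11.1, 19.9 and 19.2 CPM in IC, and 12.1, 46.1 and 19.3 CPM in IS-HA, and without IS-HA replicate 2 was the 1 of these called in IS against IC (1.70, adjusted p = 0.0214) and in IS-HA against IS (-1.80, adjusted p = 0.0376).

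Genes of neutrophil growth and release were called in every group with hemorrhage. All 5 tested of 6 rose in IS, IC and IS-HA against Normal, where 18.8%, 10.9% and 15.1% of all genes were called higher, with a median of 4.19 in IS when the genes with 0 counts in Normal are set to their lower bound. Csf3, which encodes granulocyte colony-stimulating factor, had 0 counts in both Normal rats, 3, 4 and 4 in IC, 15, 15 and 19 in IS, and 4, 5 and 4 in IS-HA. The IS counts were at least 18.2-fold above the floor over Normal. Csf3 gave 2.76 in IS against IC (standard error 0.57, adjusted p = 0.143) and -1.99 in IS-HA against IS (standard error 0.56, adjusted p = 0.499), and all IS rats were above all IC and IS-HA rats. Cebpe (a factor of granule gene expression) was at least 14.5-fold above the floor in IS, Mmp9 (gelatinase B) rose by 6.61 and Csf2rb (a cytokine receptor subunit) by 5.73. Csf3 and Mmp9 were called without IS-HA replicate 2 in IS against IC (2.76 and 1.16, adjusted p = 0.0228 and 0.0431) and in IS-HA against IS (-2.45 and -1.81, adjusted p = 0.0496 and 0.0409).

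Of 16 tested adhesion genes, 11 rose (18.8% of all genes) and 0 fell (17.0% of all genes) in IS against Normal (median 1.50), among them Selp (P-selectin of endothelium and platelets, 5.93) and the genes for the chains of the integrin LFA-1, Itgal (4.77) and Itgb2 (4.34). Of the other neutrophil chemoattractant receptors and ligands, 4 of 6 tested rose in IS against Normal (18.8% of all genes, median 2.85): C3ar1 (4.16), Alox5ap (3.73), C5ar2 (3.25) and Ptafr (2.45), receptors of complement fragments and of platelet-activating factor and, in Alox5ap, a protein of leukotriene synthesis. Alox5ap was called without IS-HA replicate 2 in IS against IC (1.07, adjusted p = 0.0267) and 0 of the 6 in IS-HA against IS.

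Of 22 genes for signaling downstream of Cxcr2, 14 rose in IS against Normal, against 18.8% of all genes, and 1 fell, against 17.0%, with a median of 1.40. Rac2 (5.00), Fgr (4.82) and Vav1 (4.73), a GTPase, a kinase and an exchange factor of blood cells, were among those that rose most, and Arrb1, which encodes beta-arrestin 1, fell by 2.27 (adjusted p = 0.00351). Arrb1 stood at 24.3 and 36.3 CPM in Normal, 15.5, 18.2 and 11.6 CPM in IC, 8.22, 5.93 and 4.54 CPM in IS, and 15.7, 4.10 and 18.2 CPM in IS-HA. With all rats 0 of the 22 were called in IS against IC or in IS-HA against IS. In the fit without IS-HA replicate 2, Rac2 was called higher (1.03, adjusted p = 0.0334) and Arrb1 lower (-1.27, adjusted p = 0.0242) in IS against IC, and Arrb1 higher in IS-HA against IS (1.42, adjusted p = 0.0376). Over the 7 lists, the counts called in IS against IC and in IS-HA against IS with all 11 rats were 0, and the medians lay between 0.26 and 0.84 in IS against IC and between -0.78 and -0.27 in IS-HA against IS, where the medians of all genes were -0.0010 and 0.045.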

How the data were processed

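Poly(A) RNA of ipsilateral striatum was sequenced with a stranded kit as paired-end reads. According to the submitters' processing notes, reads were trimmed with fastp 0.20.0, aligned to mRatBN7.2 with HISAT2 2.1.0 and counted with featureCounts, and the strand setting of the counting is not given in the sources used here. The deposited table holds raw counts of reads for each gene, and the TPM that the authors made from them by correcting for gene length and library total. Library names in the labels tied every column to its rat (0 unmatched columns), and all 11 rats were used.

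The 10 members and the gene lists were chosen with earlier results of these data known. Counts were filtered by filterByExpr, scaled by TMM and tested with the quasi-likelihood test of edgeR 4.0.16 (R 4.3.3) in 1 fit over 4 groups, adjusted by Benjamini-Hochberg over 15742 genes. The standard error was taken as the absolute log2 fold change over the root of the F statistic. Genes with 0 counts in Normal were compared with a floor of 3 counts over the group, and ratios have exact 95% intervals, both of which cover counting error only. All 10 members were named, every gene found among the other CXC genes, up to 4 called genes per other list with the largest change in IS against Normal, those called between hemorrhage groups, and the 2 genes most like each tested member. Alternatives were DESeq2 1.42.0, limma 3.58.1 on log2(TPM + 1) or log2(TPM + 0.1), other scalings, filters and cutoffs, the replicate block and each rat left out. The scripts were tested on simulated data. Promoters are from RefSeq (GRCr8). Plots were drawn with matplotlib 3.10.9. Replicates are separate rats, and p-values measure the spread between them. Overlap between groups over all genes was counted in CPM. A few genes that this rule names are not reported here.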

Additional observations from a re-analysis of the deposited data

How the results depend on the processing

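With all other settings kept, the counts of members called moved by more than 1.5 times in these cases. For IC against Normal the count of members higher (4) was 1 with at least 10 counts in every rat, a filter that leaves few members to test, and 7 with only the 2 groups compared. For IS against Normal the count higher (7) was 1 with at least 10 counts in every rat, and ranged from 6 to 8 when 1 rat was left out, and the count lower (1) was 0 without IS replicate 4 and 0 to 1 in all. For IS-HA against Normal the count higher (7) was 4 with limma on log2(TPM + 1), 1 with at least 10 counts in every rat, 4 with only the 2 groups compared, 3 at an adjusted p under 0.01, and 3 to 7 with 1 rat left out, and the count lower (1) was 0 with library size alone, with limma at either pseudocount, at an adjusted p under 0.01 and with the replicate block, and 0 to 1 with 1 rat left out. For IS against IC the count higher (0) was 3 with DESeq2 and 0 to 3 with 1 rat left out, and for IS-HA against IS the count lower (0) was 2 with DESeq2 and 0 to 3 with 1 rat left out, in both cases 3 only without IS-HA replicate 2. The replicate block called 0 members in IS against IC and 0 in IS-HA against IS. On average, same-numbered rats did not deviate together from their group means (mean correlation across genes 0.0336 in IS and IC and -0.282 in IS-HA and IS, against -0.0161 and 0.0853 for other pairs). These means rest on 3 and 2 same-numbered pairs, and the single pairs of IS and IC ran from -0.340 to 0.356. Deviations from the means of groups this small cannot exclude a batch shared by number.

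Signs that reversed, none of them of a call, were those of Cxcl13 in IS against IC (-0.18 and -1.01 with limma at a pseudocount of 1 and 0.1, and -1.67 to 0.87 with 1 rat left out) and in IS-HA against IS (0.16 with limma at 0.1, -1.66 to 1.11 with 1 rat left out), Cxcl10 in IS-HA against IS (-0.62 to 1.99 with 1 rat left out), Cxcl12 in IS-HA against IS (-0.21 with the replicate block, -0.11 to 0.31 with 1 rat left out), and in IS-HA against IC Cxcl2 (0.043 and 0.28 with limma, 1.40 with the replicate block, -0.90 to 0.96 with 1 rat left out), Cxcl3 (0.026 with DESeq2, 1.11 with the replicate block, -1.70 to 0.83 with 1 rat left out, also at 0.50 and 0.35), Cxcl6 (-0.13 to 1.17) and Cxcl10 (-0.21 and -0.29 with limma, -1.43 to 1.18 with 1 rat left out). The cause was not tested. DESeq2 gave no adjusted p for Cxcl10 in any comparison, nor for Cxcl6 and Cxcl13 between hemorrhage groups. Depth limits Cxcl6, Cxcl9 and Cxcl13 most, with 3 to 34, 4 to 25 and 0 to 34 counts per group.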

Other observations

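Cxcl9, which did not pass the filter on low counts, was fitted when the filter was left out and 21867 genes were tested. Its log2 fold change against Normal was then 2.17 in IC (standard error 0.98, adjusted p = 0.173), 0.89 in IS (standard error 1.10, adjusted p = 0.570) and 0.024 in IS-HA (adjusted p = 1), by edgeR.

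The rat with the highest Cxcl10, IS-HA replicate 2, was also high in Irf7, a transcription factor of the interferon response named here after its values were seen. Irf7 stood at 4.61 and 6.04 CPM in Normal, 14.3, 37.8 and 17.5 CPM in IC, 18.9, 15.0 and 16.0 CPM in IS, and 6.52, 31.1 and 7.45 CPM in IS-HA. IC replicate 3, the highest in Irf7, had 12.6 TPM of Cxcl10, about the level of IC replicate 2 at 12.2 TPM. That rat was the highest of the IC rats in both genes. IC replicates 2 and 4 were in opposite order, at 14.3 and 17.5 CPM of Irf7 and at 12.2 and 8.56 TPM of Cxcl10. Whether the 2 genes share a cause was not tested.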
